A study of Mus musculus with 4 samples.

Results

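The cells described here are Xcr1 Clec9a type 1 conventional dendritic cells (cDC1) of the mesenteric lymph nodes, 344 of 10297 kept cells, of which 88 came from the hCD2+ fraction and 256 from the hCD2- fraction. The kept cells carried exactly 1 hashtag, at least 500 genes, at most 10% mitochondrial UMIs (unique molecular identifiers, the counted transcripts) and at least 5000 gene UMIs. A kept cell was taken as a cDC1 when it held UMIs of at least 3 of the 6 genes Xcr1, Clec9a, Tlr3, Naaa, Gcsam and Rab7b, with 2 or more UMIs of Xcr1 and Clec9a together. Cells with 300 or more Ccr7 or 500 or more Prdm16 UMIs per 1000000 UMIs (counts per 1000000, CPM, the unit of all levels below), or with more than 1 UMI of Cd3e and Cd3d, were left out. The levels of these 10 genes therefore chose the cells and are given below as a description, and no test of them is used.

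The mice were 15 days old, untreated, and of the genotype Gm38411-iCre-hCD2 R26 tdTomato, which ties the recombinase iCre and the surface tag human CD2 (hCD2) to Gm38411 and keeps tdTomato on once recombination has occurred. The gate took CD11c+ MHC-II+ tdTomato+ cells without CD3 or B220 and was split by hCD2, so that both fractions share the alleles, the age and the tdTomato gate and differ in hCD2. The same 12 mice, each with its own hashtag, gave both fractions, and each fraction was 1 library of 3' single-cell RNA sequencing. Wherever fractions are compared, the hCD2 sort and the library cannot be told apart. No group without the cassette was analysed here.

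The hCD2+ library held 191493368 UMIs and 8801 called cells, and the hCD2- library 165869588 UMIs and 5603 called cells. The cDC1s had a median depth of 40124 UMIs in the hCD2+ library and 41313 UMIs in the hCD2- library, with 1 to 14 (median 6.5) and 8 to 38 (median 20) cells per mouse. No cDC1 barcode of either library recurred among the called cells of the other. Of the defining markers of neutrophils and of mast cells or basophils, 6 of 7 and 6 of 6 were at 0 in hCD2+ cDC1s, and 3 of 7 and 5 of 6 in hCD2- cDC1s. Markers of monocytes or macrophages summed to 189 to 697 CPM in hCD2+ and 174 to 312 in hCD2- cDC1s, and those of plasmacytoid dendritic cells to 236 to 364 and 211 to 535. The 13 markers of ILC3 or LTi cells, the innate lymphocytes that share this gate, summed to 13.5 to 221 CPM over 4 hCD2+ mice and 6.03 to 29.4 over 11 hCD2- mice, against 3950 and 852 in droplets of 10 to 100 UMIs, with Il17a at 0 in both fractions. Pooled over all cDC1s, mice with fewer than 10 cells included, they summed to 273 CPM in hCD2+ and 12.4 in hCD2- cDC1s. The hCD2+ value lay above the range of the 4 mice. T cell markers, 11 genes, summed to 3.89 to 25.3 CPM in hCD2+ and 16.4 to 65.4 in hCD2- cDC1s of these mice, and pooled over all cDC1s to 30.6 and 24.8. The part of such RNA in the results was not tested.

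cDC1 depend on the transcription factors IRF8 and BATF3 and are the dendritic cells best known for taking up dead cells and presenting their antigens on MHC class I to CD8 T cells. XCR1 is the receptor for the chemokine XCL1 made by CD8 T and NK cells, CLEC9A binds actin exposed by dying cells, TLR3 senses double-stranded RNA, and WDFY4 is needed for cross-presentation. In mouse lymph nodes, resident cDC1 are usually told by surface CD8α and cDC1 arriving from tissue by CD103, the product of Itgae, and by CCR7, the receptor that guides migration to the node.

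The markers of the label were present in nearly every mouse at similar levels. Xcr1, which the rule used, was at 445, 492, 488 and 461 CPM in hCD2+ cDC1s of mice 1, 4, 5 and 11, the 4 mice with at least 10 such cells. In hCD2- cDC1s of the 11 mice with at least 10 cells it ran over 326, 370 and 653 (lowest, median and highest). Clec9a, also used, was at 497, 420, 426 and 406 in those hCD2+ mice and ran over 327, 352 and 522 in hCD2- mice. The fractions overlapped for both genes. Wdfy4, which the rule did not use, was at 3287, 1928, 2339 and 1996 CPM in hCD2+ cDC1s and ran over 1642, 2128 and 2675 in hCD2- cDC1s. Ifi205, an interferon-inducible gene of the HIN-200 family whose close copies can share reads, was at 750, 1198, 933 and 956 in hCD2+ and 820, 1021 and 1957 in hCD2- cDC1s. Wdfy4 was found in 88 of 88 and 256 of 256 cells, and Ifi205 in 85 of 88 and 253 of 256. In the cDC2s defined further on, with a median of 28814 UMIs in the hCD2- library, Ifi205 was found in 10.1% of cells, against 98.8% of hCD2- cDC1s.

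The word resident was less clear from the transcripts. Low Ccr7 was set by the rule, and both the CD8α and the CD103 gene were found. Cd8a was detected in 67.0% of hCD2+ and 62.5% of hCD2- cDC1s, against 0.746% and 2.15% of cDC2s (median depths 32928 and 28814 UMIs). Itgae was detected in 63.6% of hCD2+ and 49.2% of hCD2- cDC1s, against 4.48% and 3.14% of cDC2s. After thinning each cell to 5000 UMIs, Itgae was seen in 35.2% of hCD2+ cDC1s (95% Wilson interval 26.1% to 45.6%) and 23.8% of hCD2- cDC1s (19.0% to 29.4%), where the intervals cover counting error only. The genes did not mark separate cells: of the hCD2+ cDC1s 40 held both, 16 Itgae alone, 19 Cd8a alone and 13 neither, and of the hCD2- cDC1s 101 held both, 25 Itgae alone, 59 Cd8a alone and 71 neither. Within hCD2+ cDC1s, 71.4% of cells with Itgae also had Cd8a, against 59.4% of cells without it, and after thinning 35.5% against 40.4%, in the opposite order. Within hCD2- cDC1s the shares were 80.2% against 45.4%, and after thinning 50.8% against 27.2%. The cells are therefore called cDC1 below, without the word resident.

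**Figure D1:**
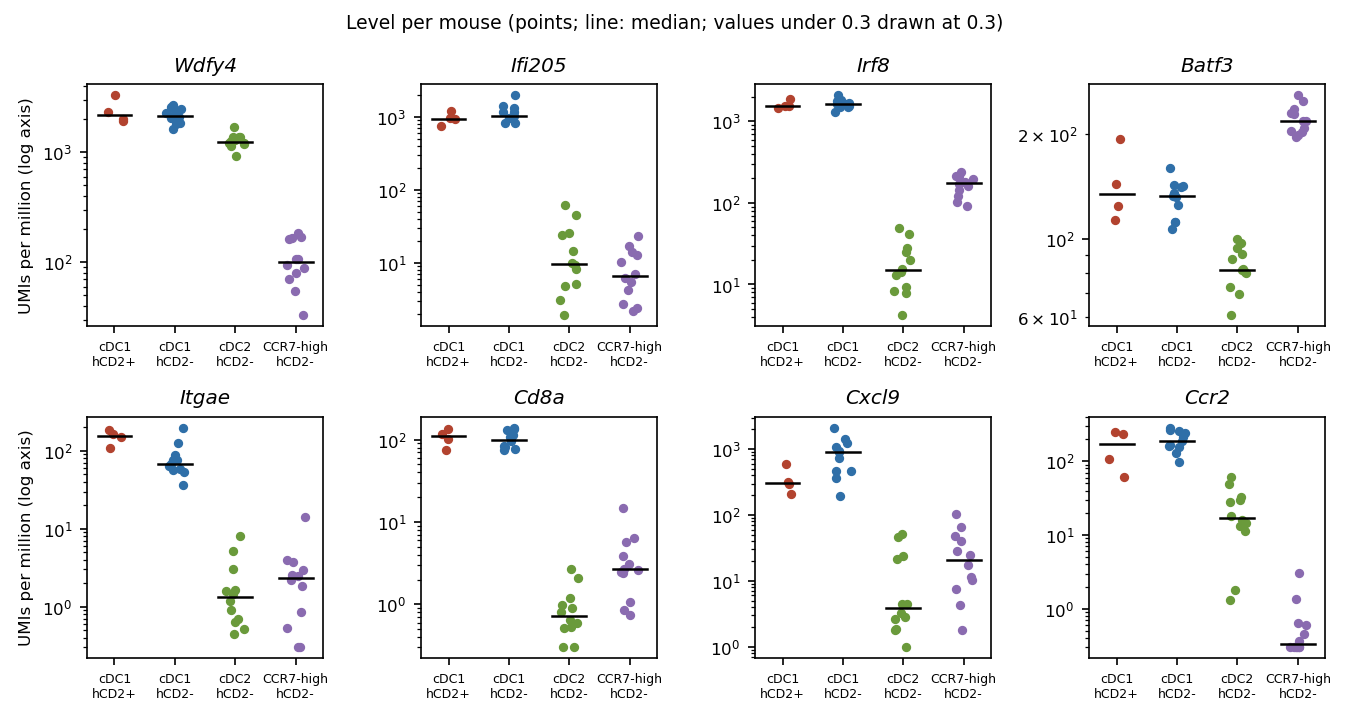
Levels of 8 genes per mouse in CPM (log axis) in hCD2+ cDC1, hCD2- cDC1, hCD2- cDC2 and hCD2- CCR7-high DC. Each point is a mouse with at least 10 cells and each line a median. Irf8, Cd8a, Itgae, Cxcl9 and Ifi205 were high in cDC1s of both fractions, and Batf3 was highest in CCR7-high DCs.

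Most cells stood well inside the limits of the rule. Of the hCD2+ cDC1s 72 held all 6 markers, 7 held 5, 4 held 4 and 5 held 3, and of the hCD2- cDC1s 205, 27, 12 and 12. The 5 hCD2+ cells with 3 markers were shallow, with a median of 8567 UMIs, and had 326 CPM of Irf8, against 1827 in hCD2+ cells with all 6. The 4 hCD2+ cells with 4 markers had 166 of Irf8 and 204 of Ifi205. The 12 hCD2- cells with 3 markers had 1440 of Irf8 and 1118 of Ifi205, against 1701 and 1107 in those with all 6. Just outside, cells with only 1 marker but 2 or more Xcr1 and Clec9a UMIs (14 hCD2+ and 21 hCD2-) had 36.5 CPM of Ifi205 in the hCD2+ and 0 in the hCD2- library. Their Irf8 was at 2054 and 2164, against 1740 and 1641 in the cDC1s, and Siglech, a marker of plasmacytoid dendritic cells, was at 1641 and 1598, against 0.828 and 4.12 in the cDC1s. Cells left out by Ccr7 alone, 6 hCD2+ and 10 hCD2-, held 1799 and 961 CPM of Fscn1, a gene of migrating dendritic cells, against 11 and 12.2 in the cDC1s. In the 10 hCD2- cells among them Il12b, a subunit of interleukin-12, was at 2211 CPM, against 63.9 in the hCD2- cDC1s. The Prdm16 limit alone left out 10 hCD2+ and 0 hCD2- cells, and the limit on Cd3e and Cd3d alone left out 27 and 75.

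cDC1s made up a smaller share of the hCD2+ fraction. Over 12 mice they were 1.42% ± 0.64 of kept hCD2+ cells and 5.76% ± 2.37 of kept hCD2- cells (SD). The hCD2+ shares ran from 0.222% in mouse 7 to 2.62% in mouse 4, with a median of 1.43%. The hCD2- shares ran from 3.51% in mouse 2 to 11.6% in mouse 12, with a median of 5.15%, so that the fractions did not overlap. The share was lower in hCD2+ in 12 of 12 mice, by 4.34 percentage points on average (two-sided permutation p = 2e-05, the smallest these permutations can give). This test leaves out the pairing of the mice. With signs flipped within mice, which uses the pairing, p was 0.000488. Mouse 12, with the highest hCD2- share, had an hCD2+ share of 1.07%, below the median. These shares are of sorted cells, and the gate sets the rest of each fraction. A lower share was not particular to cDC1s. On average cDC2s were 2.34% of kept hCD2+ and 14.1% of kept hCD2- cells. CCR7-high DCs, defined further on, were 11.2% and 21.8%. The shares of these 2 types were not tested.

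**Figure D2:**
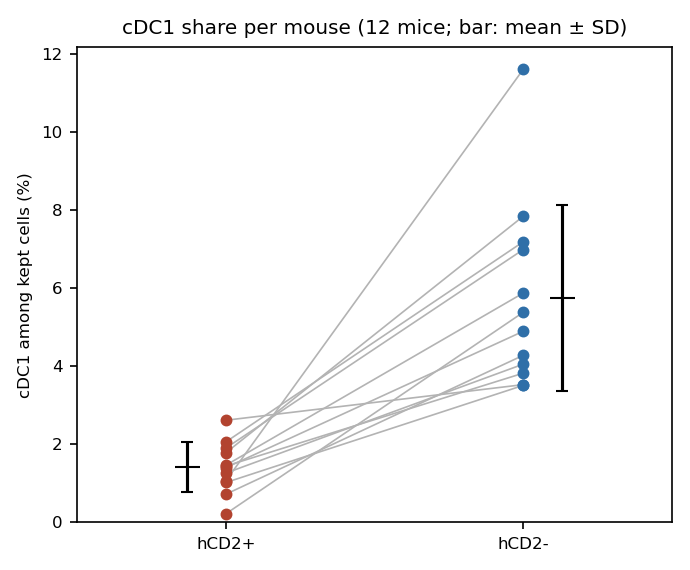
Share of cDC1s among kept cells (%, vertical axis) in the hCD2+ and hCD2- fractions. Each point is a mouse, lines join the fractions of 1 mouse, and the bars show the mean ± SD over 12 mice. The hCD2+ shares lay between 0.222% and 2.62% and the hCD2- shares between 3.51% and 11.6%.

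The next comparison asked whether cDC1s in the hCD2+ fraction differed from those in the hCD2- fraction. Few genes differed, and 13 of the 36 were, by name, ribosomal protein genes or near copies of them. Predicted genes such as Gm10076 were not counted among the 13, and whether they are such copies was not tested. Of 7529 genes tested over 4 hCD2+ and 11 hCD2- mice, 36 (0.478%) had an adjusted p under 0.05, 14 (0.186%) higher and 22 (0.292%) lower in hCD2+ cDC1s, and 643 had an unadjusted p under 0.05. None of the 29 tested members of a list of cDC1 genes outside the rule, Wdfy4 and Ifi205 among them, was called. No call fell among 30 DC transcription factors, 21 MHC class I, 15 MHC class II or 24 cross-presentation genes either. With 0.478% of all genes called, the lack of calls in lists this short does not show that their members were unchanged. The median log2 fold change was 0.15 for the other cDC1 genes and -0.0007 for all genes tested. The 7529 genes included 7 of the 10 genes of the cell rule, whose test results are not used. The calls and standard errors here and below come from a fit without the pairing of the mice, unless a block is named. With mouse as a block 38 of 6710 genes were called, 21 of them among the 36. Calls lost on named genes are given further on.

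Ribosomal protein genes gave 11 of the 22 lower genes. Rpl35, of the large subunit, was at 410, 379, 378 and 322 CPM in hCD2+ mice 1, 4, 5 and 11, and at 784, 828 and 952 (lowest, median and highest) in 11 hCD2- mice. The groups did not overlap (log2 fold change -1.16 ± 0.08 SE, adjusted p = 6.65e-08). Rps29, of the small subunit, was at 777, 926, 1026 and 861 in hCD2+ and 1659, 1864 and 2042 in hCD2- mice (-1.04 ± 0.09, adjusted p = 3.6e-07). Rpl38 (-0.97), Rps28 (-0.90) and Rps27 (-0.87) were lower by similar amounts, and Rpl10 by the least (-0.36). Their near copies moved the other way: Rps27rt, named as a copy of Rps27, was at 64.0, 50.6, 97.5 and 67.4 in hCD2+ and 22.5, 31.5 and 45.5 in hCD2- mice (1.16 ± 0.20), and Rpl10-ps3 was at 116, 128, 149 and 141 against 57.1, 68.1 and 75.7 (1.05 ± 0.11). Reads of such copies can be assigned to either, so that the values of each are uncertain. Gm10076, a predicted gene, was at 98.9, 97.3, 135 and 92.6 in hCD2+ and 364, 482 and 528 in hCD2- mice (-2.10 ± 0.13), again without overlap.

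By direction alone, most of these genes went the same way outside the cDC1s. Of the 36 called genes, 35 differed in the same direction between the fractions in cDC2s, 32 in CCR7-high DCs and 31 in droplets of 10 to 100 UMIs, and 29 did in all 3. Direction here is the sign of the difference between pooled levels, with no threshold. The share over all genes tested was not computed, so these counts have no background. The part of the library in these differences cannot be told apart from that of the fraction. Other lower genes were Polr2l, a subunit shared by the RNA polymerases, at 14.5, 13.6, 10.5 and 6.32 CPM in hCD2+ and 26.6, 48.9 and 55.1 in hCD2- mice (-2.10 ± 0.23). Hmga1, a chromatin protein gene (-1.84 ± 0.27), Eno1, the glycolytic enolase (-1.29 ± 0.19), and the mitochondrial mt-Nd4l (-1.21 ± 0.13) and mt-Nd3 (-0.65 ± 0.13) of complex I were also lower. Ndufa3 (-0.72 ± 0.11), Ndufb1-ps (-0.70 ± 0.10) and Atp5k (-0.68 ± 0.14), of the nuclear part of the respiratory chain, were lower too. Hmga1 and Eno1 have near-identical copies, and their values are uncertain for the same reason.

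Among the higher genes, Tmem176b, a membrane protein gene abundant in other dendritic cells, was at 180, 79.8, 19.5 and 94.7 CPM in hCD2+ mice and 6.45, 27.1 and 41.4 in hCD2- mice. The groups overlapped through mouse 5 (1.91 ± 0.41, higher in 4 of 4 mice, adjusted p = 0.0331). The call was lost without mouse 1 (adjusted p = 0.302), 4 (0.0732) or 11 (0.152), and with cells of at least 10000 UMIs (0.331). Tmcc3 was at 61.1, 9.73, 131 and 107 in hCD2+ mice and 4.71, 6.71 and 27.1 in hCD2- mice (3.06 ± 0.47, adjusted p = 0.00112), and mouse 4 lay within the hCD2- range. Droplets of 10 to 100 UMIs held 379 CPM of Tmem176b in the hCD2+ and 322 in the hCD2- library, and 387 and 399 of Tmcc3. Wdr89 (1.40 ± 0.16), Itfg1 (0.81 ± 0.17) and Zfand6 (0.56 ± 0.11) were the other higher genes named by rule. With mouse as a block, 38 genes were called and the calls on Rps27rt, Rpl10, mt-Nd3, Itfg1, Zfand6, Ndufa3 and Atp5k were lost.

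The reporter lay near the threshold. tdTomato was at 81.4, 13.6, 138 and 75.8 CPM in hCD2+ cDC1s of mice 1, 4, 5 and 11, and at 108, 230 and 293 in hCD2- cDC1s. Only mouse 5 lay within the hCD2- range. The log2 fold change of -1.48 ± 0.35 was lower in 4 of 4 mice and missed the threshold (adjusted p = 0.0798), while with mouse as a block it was -1.29 and passed (adjusted p = 0.035). Without mouse 5 it was -2.02 and passed as well (adjusted p = 0.0189), and over all alternatives the adjusted p ran from 0.00394 to 0.239. tdTomato was found in 53.4% of hCD2+ and 75% of hCD2- cDC1s, although both had been sorted as positive for the protein. The cassette transcript Gm38411 gave 4 UMIs in 88 hCD2+ cDC1s and 0 in 256 hCD2- cDC1s, which allows up to 0.269 CPM in them. Pooled over hCD2+ cDC1s it was at 1.10 CPM, below the 23.7 in droplets of that library, and hCD2 was at 0.828, against 25.7.

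Itgae was at 183, 163, 108 and 152 CPM in hCD2+ mice and at 36.8, 68.4 and 199 in hCD2- mice. It was higher in hCD2+ in 4 of 4 mice but the groups overlapped (0.93 ± 0.31, adjusted p = 0.33). Cadm1, an adhesion molecule of cDC1, averaged 1042 ± 113 in hCD2+ and 651 ± 251 in hCD2- mice (SD, n = 4 and 11), with log2 0.69 ± 0.24 and adjusted p = 0.372, and 0.035 with mouse as a block. Cxcl9, a ligand of CXCR3, averaged 353 ± 165 in hCD2+ and 903 ± 552 in hCD2- mice (-1.31 ± 0.47, adjusted p = 0.373). Irf8 averaged 1613 ± 190 in hCD2+ and 1657 ± 203 in hCD2- mice (-0.02 ± 0.10), and Id2, the inhibitor of E proteins that cDC1 need, 1114 ± 102 and 894 ± 98.2 (0.33 ± 0.09, adjusted p = 0.189). With 4 mice in an arm, simulated 2-fold changes were recovered in 84% of genes. Smaller changes could be missed, and so could changes of 2-fold or more. Cxcl9 at -1.31 and tdTomato at -1.48 were not called.

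**Figure D3:**
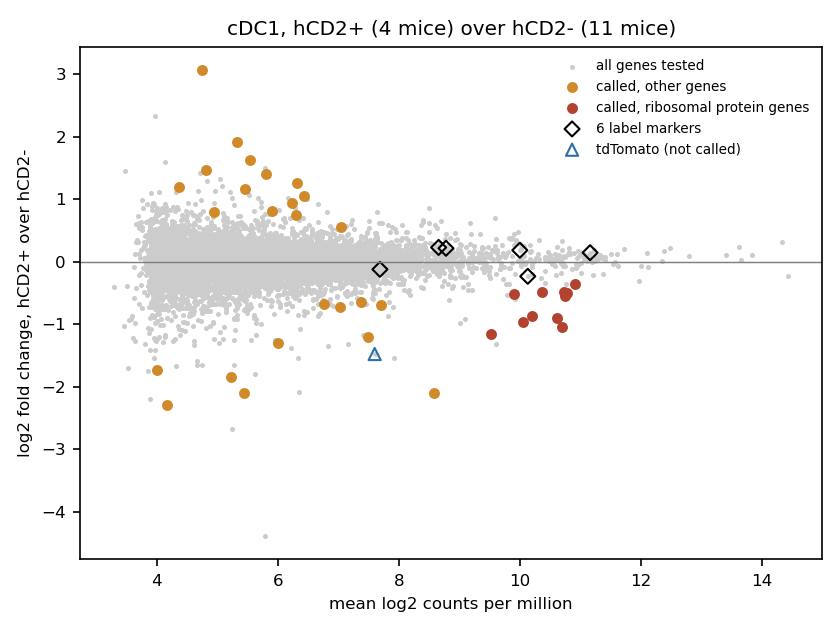
Each point is a gene: mean log2 CPM (horizontal axis) and log2 fold change of hCD2+ over hCD2- cDC1s (vertical axis; 4 and 11 mice). Called ribosomal protein genes are in red, other called genes in orange, the 6 label markers as diamonds and tdTomato as a triangle. The label markers lay near 0 and tdTomato at -1.48.

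cDC1s were next set against cDC2s of the hCD2- library, the type 2 conventional dendritic cells that present mainly to CD4 T cells. The cDC2s, 606 cells, held at least 3 of Sirpa, Clec4a2, Clec4a4, Cd209a, Clec10a, Esam and Adgrl3, at least 1 UMI of Flt3 or Zbtb46, none of Xcr1 and Clec9a and at most 2 of Siglech. Over 11 and 12 mice, 4953 of 8638 genes (57.3%) passed the threshold, 2561 (29.6%) higher and 2392 (27.7%) lower in cDC1s, with genes of either rule left out. cDC1s had more of Irf8 and of the MHC class I peptide pathway, and less of Irf4, Zeb2 and most maturation genes. Each count of a list below is to be read against these shares. The median depth was 41313 UMIs in cDC1s and 28814 in cDC2s, and with cells thinned to 5000 UMIs 1817 of 3460 genes passed.

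Of 31 DC transcription factors, 10 were higher and 16 lower in cDC1s, with a median log2 fold change of -0.28 against 0.02 for all genes. Irf8 ran over 1301, 1647 and 2082 CPM in cDC1s and 4.21, 14.9 and 49.3 in cDC2s, without overlap (6.49 ± 0.26). Irf4, the counterpart of Irf8 in cDC2, averaged 2.76 in cDC1s and 73.1 in cDC2s (-4.25 ± 0.28). Zeb2, a repressor that favours cDC2 and plasmacytoid cells, averaged 17.3 and 443 (-4.36 ± 0.36), and Tbx21, which marks a cDC2 subset, 5.56 and 81.6 (-3.70 ± 0.25). Batf3, the partner of IRF8, differed far less, with 107, 133 and 160 in cDC1s and 60.6, 81.7 and 99.7 in cDC2s (0.72 ± 0.09). Id2 averaged 894 in cDC1s and 364 in cDC2s (1.36 ± 0.09), and Mycl, a Myc family gene of cDC1, 157 and 36.6 (2.16 ± 0.09).

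Of 27 other cDC1 genes tested, 25 were higher and Adam23 was lower (-1.68 ± 0.18), with Arl1 not called, and the list's median was 3.64. These genes were chosen as genes of cDC1, so their direction is a check of the cells. Cd8a averaged 104 ± 23.8 CPM in cDC1s and 0.916 ± 0.79 in cDC2s (6.89 ± 0.22), and Itgae 82.6 ± 45 and 2.12 (5.51 ± 0.34). Plpp1, a lipid phosphatase gene, averaged 98.3 and 0.483 (7.34 ± 0.26). For Gpr141b, an orphan receptor gene, cDC2s had 1 UMI in all, and the ratio of pooled levels was 3150.4 (95% counting interval 565 to 124500). P3h2, a collagen prolyl hydroxylase gene, had 2 UMIs in cDC2s (ratio 1724, 477 to 14243). The other higher genes named by rule were Cacna1e, a calcium channel subunit (6.94 ± 0.43), Itga8, an integrin (6.93 ± 0.37), P2ry14, the receptor for UDP-glucose (6.46 ± 0.33), Cxcl9 (6.31 ± 0.51) and Pdia5, a protein disulfide isomerase (6.15 ± 0.23).

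The lower genes of largest fold were led by Dlc1, a GTPase-activating protein gene, with 2 UMIs in cDC1s (ratio 0.00185, 95% counting interval 0.000224 to 0.00671). Dscam, an adhesion molecule better known from neurons, ran over 1.61, 5.91 and 35.3 CPM in cDC1s and 814, 1346 and 1595 in cDC2s (-7.23 ± 0.29). Esrrg, an orphan nuclear receptor (-7.04 ± 0.37), Dpp10, an ion channel partner (-7.03 ± 0.64), Tmem132c (-6.90 ± 0.44), Tln2, a talin (-6.62 ± 0.24), Clec4a1, a C-type lectin (-6.57 ± 0.27), and Tgm2, a transglutaminase (-6.04 ± 0.24), followed. Sirpb1a (-6.80 ± 0.32) and Sirpb1b (-6.36 ± 0.34) are near copies of each other and their split is uncertain.

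In antigen presentation the classes parted. Of 21 MHC class I genes, 15 were higher and 1, B2m, was lower in cDC1s (-0.28 ± 0.07), and the list's median was 0.68. The peptide transporter genes Tap1 (229 against 86.7 CPM, 1.45 ± 0.11) and Tap2 (1.37 ± 0.10) and the immunoproteasome genes Psmb9 (1.48 ± 0.09) and Psmb8 (1.31 ± 0.08) were among the higher ones. So was Pdia3, of the loading complex, at 977 against 389 (1.39 ± 0.07). H2-K1 itself averaged 701 in cDC1s and 700.5 in cDC2s (0.06 ± 0.08). Of 15 MHC class II genes, 7 were higher and 7 lower. H2-Ab1, a chain of the classical molecule, averaged 5025 in cDC1s and 3299 in cDC2s (0.67 ± 0.06), and H2-DMb1, of the peptide-editing molecule, 436 and 201 (1.18 ± 0.10). H2-Eb2 (-3.70 ± 0.24) and H2-DMb2 (-2.09 ± 0.08), a gene close in sequence to H2-DMb1, were lower.

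Of 25 genes of cross-presentation and uptake of dead cells, 7 were higher and 11 lower. Cst3, the cathepsin inhibitor cystatin C, averaged 10471 in cDC1s and 739 in cDC2s (3.89 ± 0.08). Cd36, a scavenger receptor (5.78 ± 0.34), Rab43, a GTPase gene of cross-presentation (1.01 ± 0.08), and Wdfy4 (0.84 ± 0.09) were higher. Wdfy4 averaged 2180 in cDC1s but also 1275 in cDC2s, so that this marker of the label was shared by both types. Cybb, of the NADPH oxidase (-4.00 ± 0.34), and Syk, the kinase that CLEC9A signals through (-1.84 ± 0.10), were lower.

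Sensing and traffic genes went both ways. Of 22 pattern recognition receptor genes, 8 were higher and 10 lower: Tlr11 (50.6 against 2.83, 4.24 ± 0.25) and Tlr12 (14.5 against 0.818, 4.11 ± 0.32), sensors of protozoan profilin, were higher with Clec12a, a receptor for dead cells (3.21 ± 0.17). Clec4n, which encodes Dectin-2 (-6.19 ± 0.71), and Tlr1 (-3.77 ± 0.28) were lower. Of 17 chemokine receptor and homing genes, 9 were higher and 7 lower. Ccr2 averaged 197 in cDC1s and 23.2 in cDC2s (3.19 ± 0.32), and Ccr9, the gut homing receptor gene, 80.1 and 17.6 (2.25 ± 0.22). Ccr6 (-5.73 ± 0.32) and Itgam, which encodes CD11b (-4.04 ± 0.20), were lower.

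Of 16 cytokine and chemokine genes, 5 were higher and 9 lower. Cxcl9 ran over 197, 893 and 2110 CPM in cDC1s and 0.974, 3.83 and 51.5 in cDC2s, with no overlap but a wide range within the cDC1s. Cxcl16 (2.66 ± 0.22) and Cxcl10 (2.70 ± 0.54) were higher, and Ccl5 (-3.19 ± 0.20) and Ltb (-3.08 ± 0.14) lower. Of 24 genes of the maturation and migration programme, 4 were higher and 16 lower (median -0.91). Il4i1 (-4.15 ± 0.33), Cd274, which encodes PD-L1 (-1.91 ± 0.24), and Cd86 (537 against 1310.2, -1.23 ± 0.12) were lower, while Serpinb6b (2.50 ± 0.33) was higher. Of 29 interferon-response genes, 11 were higher, among them Ifi211 (5.0 ± 0.27) and Irf7 (2.18 ± 0.30), and 7 lower, among them Rtp4 (-4.29 ± 0.34).

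**Figure D4:**
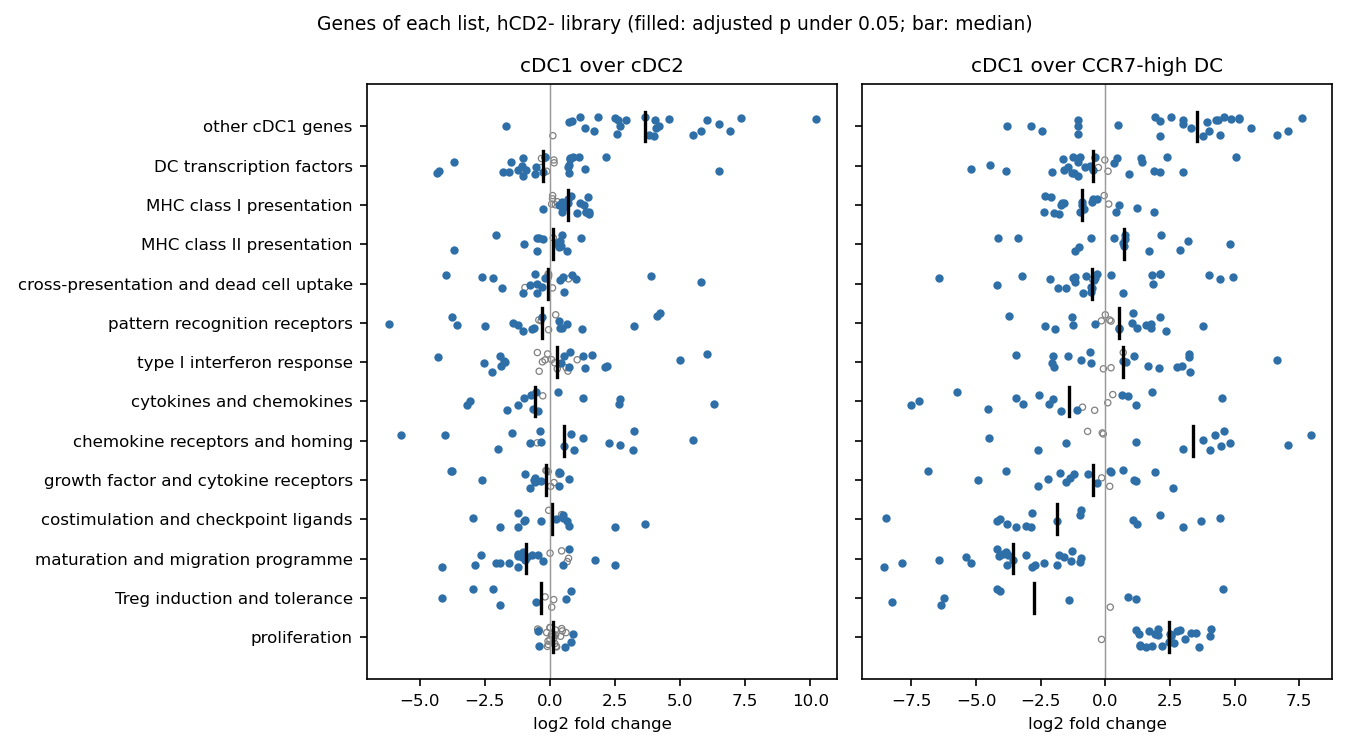
Log2 fold changes (horizontal axis) of the genes of 14 lists, for cDC1 over cDC2 and for cDC1 over CCR7-high DC in the hCD2- library. Each point is a gene, filled where the adjusted p was under 0.05, and each bar is a list's median. The maturation list had a median of -0.91 against cDC2s and -3.57 against CCR7-high DCs.

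Against CCR7-high DCs, cDC1s had more of the proliferation genes. They also had less of the maturation genes, some of which chose the cells. The CCR7-high DCs, 964 hCD2- cells, had at least 300 CPM of Ccr7 and at least 3 of Fscn1, Cacnb3, Ccl22, Il4i1 and Nudt17. Their rule used no cDC1 or cDC2 gene other than Ccr7 and the limits on Prdm16 and CD3, so that mature cells of either type could be among them. Over 11 and 12 mice, 6853 of 8828 genes (77.6%) passed, 3481 (39.4%) higher and 3372 (38.2%) lower in cDC1s. The median depth was 41313 UMIs in cDC1s and 29888 in CCR7-high DCs, and with thinned cells 2640 of 3595 genes passed.

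All 23 maturation genes tested outside the rule were lower in cDC1s, with a median of -3.57 against 0.01 for all genes. High Ccr7 and other genes of this programme chose the CCR7-high DCs, so the direction of the list is a check of the cells. Apol7c, of the apolipoprotein L family, averaged 44.5 CPM in cDC1s and 2829 in CCR7-high DCs (-6.44 ± 0.31), Socs2, a cytokine signal inhibitor, 1.6 and 594 (-8.57 ± 0.19), and Cd40 78.3 and 516 (-3.07 ± 0.21). Cd274 averaged 47.2 and 717 (-4.21 ± 0.25). There was no UMI of 4 genes in the cDC1s: Sh2d4a was at least 240.2-fold, Heatr9 199-fold, Pla2g4f 195-fold and Cd70, the ligand of CD27, 92.7-fold lower, each against a floor of 3 UMIs over the group. Papss2 had 2 UMIs (ratio 0.00093, 95% counting interval 0.000113 to 0.00336) and Cxcl2 had 1 (0.000762, 1.93e-05 to 0.00425). Slco5a1 (-9.84 ± 0.19), Ankrd33b (-9.73 ± 0.22), St18 (-9.37 ± 0.30) and Dscaml1 (-9.31 ± 0.22) were the other lower genes of largest fold that had more than 3 UMIs.

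The identity genes were split. Of 28 other cDC1 genes, 22 were higher and 6 lower in cDC1s: Irf8 averaged 1657 and 168 (3.0 ± 0.13), Mycl 157 and 3.81 (5.05 ± 0.16) and Wdfy4 2180 and 110 (4.03 ± 0.21). Batf3, in contrast, averaged 131 ± 16.0 in cDC1s and 220 in CCR7-high DCs (-1.04 ± 0.07), and Id2 894 and 1499 (-1.04 ± 0.06). Zbtb46, a factor of all conventional dendritic cells, was lower as well (-1.63 ± 0.11), as were Irf4 (-5.18 ± 0.29), Relb (-3.85 ± 0.07), Fnbp1l (-3.82 ± 0.23) and Ly75, which encodes DEC-205 (-2.86 ± 0.19). Ccr2 averaged 197 in cDC1s and 0.541 in CCR7-high DCs (7.94 ± 0.30), the highest fold among the genes named by rule. Ifi205 (6.66 ± 0.28), the adaptor gene Clnk (5.62 ± 0.37), Gpr171 (5.49 ± 0.28), P2ry14 (5.42 ± 0.22), Anxa1, an annexin that limits inflammation (5.35 ± 0.21), Cacna1e (5.26 ± 0.48), Sdad1 (5.20 ± 0.12), the lysosomal thioesterase gene Ppt1 (5.16 ± 0.25) and Snx22 (5.16 ± 0.18) followed.

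Presentation genes went in opposite directions by class. Of 21 MHC class I genes, 4 were higher and 15 lower (median -0.88): B2m (-1.71 ± 0.07), H2-K1 (701 against 1716, -1.59 ± 0.07) and the class I transactivator Nlrc5 (-2.32 ± 0.16) were lower, while the chaperones Pdia3 (1.90 ± 0.06) and Calr (1.21 ± 0.09) were higher. Of 15 MHC class II genes, 10 were higher and 5 lower (median 0.71). March1, the ubiquitin ligase that turns over surface class II, averaged 278 in cDC1s and 8.30 in CCR7-high DCs (4.84 ± 0.24), H2-Ob 75.4 and 6.80 (3.21 ± 0.17), and H2-DMb1 436 and 48.2 (2.89 ± 0.10). Cd1d1 (-3.38 ± 0.13) and H2-Eb2 (-4.14 ± 0.25) were lower.

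Signals to T cells were mostly lower in cDC1s. Of 20 cytokine and chemokine genes, 5 were higher and 11 lower: Ccl5 averaged 24.9 in cDC1s and 2990 in CCR7-high DCs (-7.19 ± 0.17), Ccl17 1.87 and 248 (-7.53 ± 0.42) and Il12b 51.8 and 275 (-2.57 ± 0.54), while Cxcl9 was higher at 903 and 30.1 (4.53 ± 0.47). Aldh1a2, the retinoic acid synthesis enzyme, ran over 0, 2.17 and 5.34 in cDC1s and 128, 149 and 194 in CCR7-high DCs (-6.22 ± 0.18). Itgb8, the integrin chain that activates TGF-β, gave 3 UMIs in cDC1s and 2712 in CCR7-high DCs (ratio 0.00294, 95% counting interval 0.000606 to 0.0086). tdTomato averaged 223 ± 62.9 in cDC1s and 333 in CCR7-high DCs (-0.86 ± 0.12).

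cDC1s included dividing cells. A cell was counted as dividing with UMIs of at least 3 of 10 mitotic genes, such as Mki67 and Top2a, after thinning to 5000 UMIs. By this count 24 of 88 hCD2+ and 56 of 256 hCD2- cDC1s were dividing. Over hCD2- mice the share was 21.2% ± 8.80 of cDC1s (n = 11; 9.09% to 40%) and 1.92% ± 1.61 of CCR7-high DCs (n = 12; SD), higher in 11 of 11 mice, by 19.3 percentage points (two-sided permutation p = 2e-05, adjusted p = 4e-05 over 2 comparisons). Against 16.2% ± 3.70 of cDC2s (n = 12) it was 4.99 points higher, in 7 of 11 mice, and did not pass (permutation p = 0.0845). With mice of at least 5 cells the difference was 6.35 points, with permutation p = 0.0423. These permutations leave out the pairing of the mice. With signs flipped within mice, the adjusted p was 0.00195 against CCR7-high DCs and 0.138 against cDC2s. Of 26 proliferation genes, 25 were higher in cDC1s than in CCR7-high DCs (median 2.47), among them Cenpf (4.09 ± 0.40), Ube2c (4.04 ± 0.39), Top2a (326 against 43.7, 2.64 ± 0.30) and the replication helicase gene Mcm5 (2.50 ± 0.17). Against cDC2s 3 of 28 were higher, Hells (0.87 ± 0.18), Cdk1 (0.81 ± 0.19) and Aurkb, and 2 lower. Free RNA also reaches these counts, and its part in them was not tested.

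Between mice, the genes of hCD2- cDC1s that varied most included Isg15 and Ifi204 of the interferon-response list and the chemokine genes Cxcl10 and Ccl4. For each of 3447 genes at 50 CPM or more on average, the variation between 11 mice beyond counting error was taken as a coefficient of variation, with a median of 13%. The 10 highest were Gbp5 (133%), Il12b (120.3%), Cxcl10 (118%), Ifih1 (115%), Isg15 (109.9%), Ifi204 (104%), Slfn5 (101%), Ccl4 (97.6%), Parp14 (87.8%) and Hspa1a (79.9%). This ranking is a description of 11 mice with 10 to 38 cells each and was not tested. Variation between the cells of a mouse also enters it: the 639 CPM of Cxcl10 in mouse 2 came from 2 of 11 cells, and the highest Il12b, 159 CPM in mouse 11, from 5 of 34. The 5 hCD2- cDC1s with Ccr7 of at least 100 CPM held 1311 CPM of Il12b. Mouse 2, with 11 cDC1s, was highest for Gbp5, Cxcl10, Ifih1, Isg15, Ifi204, Slfn5 and Parp14.

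Promoter sequences of Isg15, Cxcl10, Gbp5 and Slfn5 are shown because they are those of the 10 genes whose promoters hold GAAANNGAAA, the core of the element that interferon-activated factors and IRFs bind, given in capitals (either strand). They are from RefSeq on GRCm38.p6, upstream of the annotated gene start and written 5′ to 3′ on the gene's strand. Isg15, an interferon-induced ubiquitin-like protein, lies at chr4:156200819-156201068 (minus strand), with 3 overlapping matches, and Cxcl10, a CXCR3 ligand, at chr5:92348890-92349139 (minus strand). For Gbp5 (a guanylate-binding protein; chr3:142496759-142496788, plus strand), Slfn5 (a Schlafen gene; chr11:82951937-82951966, plus strand) and the label marker Ifi205 (chr1:174031870-174031899, minus strand), 30 bases around the match are shown.
Isg15: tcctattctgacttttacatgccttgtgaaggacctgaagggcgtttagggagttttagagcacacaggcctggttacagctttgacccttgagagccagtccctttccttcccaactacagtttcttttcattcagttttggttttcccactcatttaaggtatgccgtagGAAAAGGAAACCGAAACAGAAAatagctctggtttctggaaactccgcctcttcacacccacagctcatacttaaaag
Cxcl10: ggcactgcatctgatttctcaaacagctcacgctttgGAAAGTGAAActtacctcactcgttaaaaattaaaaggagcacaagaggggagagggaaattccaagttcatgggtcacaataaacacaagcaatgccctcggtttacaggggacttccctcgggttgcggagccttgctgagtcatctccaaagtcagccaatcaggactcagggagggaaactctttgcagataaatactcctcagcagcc
Gbp5: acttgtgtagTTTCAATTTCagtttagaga
Slfn5: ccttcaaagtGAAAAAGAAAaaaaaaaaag
Ifi205: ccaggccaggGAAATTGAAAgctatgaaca
The motif was present in the 250 bases upstream of the start in 978 of 32851 promoters (2.98%). It was present in 4 of the 7 matched genes of the 10 above (Cxcl10, Gbp5, Isg15 and Slfn5), not in that of Ifih1, for which mouse 2 was also highest, and in 23 of 41 promoters of the interferon-response list. Of 32 promoters of 28 label and other cDC1 genes, 3 held it, those of Gpr141b, Ifi205 and Slamf8. The related GGAANNGAAA, an ETS and IRF composite, was in 1 of these 32 against 2.30% of all promoters, and the AP-1 motif TGANTCA in 0 of 32 against 6.75%, both strands searched. A match is a property of the letters and not evidence of binding.

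The level summed over 40 interferon-response genes without Ifi205 was taken in hCD2- cDC1s of the 11 mice with at least 10 cells. It ran from 1393 CPM in mouse 1 over a median of 2157 to 5308 in mouse 2. Mice 6 and 12 followed at 3898 and 3433. The medians over single cells of mice 2 and 6 were closer, at 3119 (11 cells) and 3076 (22 cells), with 2145 in mouse 12. The highest single cell had 22358 CPM in mouse 2 and 24224 in mouse 6. In cDC2s of the same library the sum ran from 1169.7 to 2369.5, with mice 12 and 2 highest, and in CCR7-high DCs from 1447 to 2489, where mouse 2 ranked 10th of 12. Single cells contributed unequally: 9 of 256 hCD2- cDC1s, in mice 2, 5, 6, 11 and 12, had 10000 CPM or more and held 20.6% of the list's UMIs. Of 88 hCD2+ cDC1s 0 reached that level, which by counting error alone allows a share of up to 3.41%. Of 134 hCD2+ cDC2s 4 did, in mice 4 and 12, and held 21.8% of the list's UMIs. In the hCD2- library 4 of 606 cDC2s and 6 of 964 CCR7-high DCs reached 10000 CPM. Cells of the same mouse are not independent, and these counts were not tested against each other. Slfn5 ran over 66.9, 190 and 1093 CPM across hCD2- mice, and Cxcl9 over 197, 893 and 2110, with mouse 2 highest for both. Without mouse 2, a choice made after the data were seen, 4940 genes passed against cDC2s and 6904 against CCR7-high DCs.

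Hspa1a, a heat shock gene whose near-identical neighbour Hspa1b shares reads with it, varied between mice in the other dendritic cells too. In hCD2- cDC1s of the 11 mice with at least 10 cells it ran from 96.2 CPM in mouse 2 to 1559 in mouse 7, with 1183 in mouse 8 and 949 in mouse 12. Mouse 10, left out with 8 cells, was higher still at 1849. cDC2s were highest in mice 7 (1191) and 8 (1138), and CCR7-high DCs in mice 10 (1546) and 7 (1443). In the hCD2+ library CCR7-high DCs were highest in mice 8 (808) and 7 (663) and lowest in mouse 1 (75.9). Its level in cDC1s over that in cDC2s was within the spread between mice (0.06 ± 0.46, adjusted p = 0.93).

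**Figure D5:**
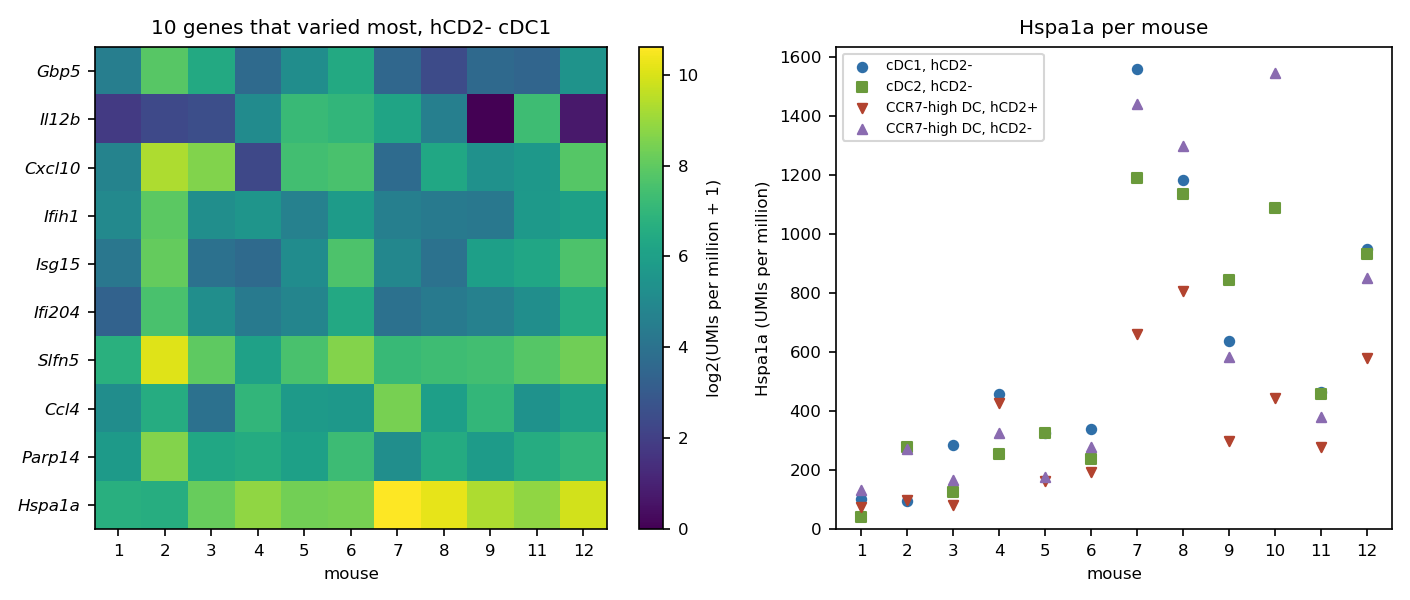
Left, levels of the 10 genes that varied most between mice in hCD2- cDC1s, as log2(CPM + 1) for 11 mice. Right, Hspa1a in CPM per mouse in cDC1, cDC2 and CCR7-high DC. Mouse 2 was highest for 7 of the 10 genes. Among the 11 mice with at least 10 cells, Hspa1a in cDC1s was highest in mouse 7 at 1559.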

How the data were processed

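Gene expression of sorted mesenteric lymph node cells and the mouse hashtags were read from 2 libraries, 1 per fraction. The authors' deposited matrices hold counts of UMIs per gene and cell made with Cell Ranger 8.0.1 and mm10, per the submitters' processing notes. The deposited hashtag tables give each called cell's assignment and its probability as a fraction, per the file headers; cells assigned to exactly 1 hashtag were kept, and multiplets (806 hCD2+, 465 hCD2-) were left out, with no other doublet caller. Further filters are given in the report.

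Counts were summed per mouse and cell set where a mouse had at least 10 cells (4 hCD2+ and 11 hCD2- mice for cDC1s). For cDC1s this gave 343787 to 666445 UMIs per hCD2+ mouse and 488523 to 1698836 per hCD2- mouse. They were tested with edgeR 4.0.16 in R 4.3.3 (TMM, filterByExpr, quasi-likelihood F test, Benjamini-Hochberg over all genes tested, threshold 0.05). A log2 fold change stands with its standard error, and every adjusted p of genes is from this test. Levels are counts per 1000000 (CPM) of the set's gene UMIs. Shares were compared by a two-sided permutation test (100000 resamples) in scipy 1.17.1, with mice unpaired. As an alternative, signs were flipped within mice. A floor is 3 UMIs, and intervals cover counting error only. On simulated data with 200 changed genes, 2-fold changes were recovered in 84% (hCD2+ against hCD2-, 7382 genes), 100% (cDC2, 8563 genes) and 100% (CCR7-high, 8762 genes), with 7.54%, 9.09% and 3.85% of calls false.

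The hashtags mark the same 12 animals in both fractions, so mice pair by design. Deviations of same-numbered samples from the fraction means correlated by 0.41 on average over 6784 genes (0.0909 to 0.585, above 0.1 in 11 of 12). Named genes were the 10 higher and 10 lower of largest fold per comparison whose mean log2 CPM reached 5, and members of gene lists. Ribosomal protein, mitochondrial and predicted genes, Tmcc3 and the genes most variable between mice were outside that rule and were named after their values were seen. The cell rule, the gene lists and the comparisons were chosen with earlier results of these data known. In the lists, 10 genes with no row in the feature table were not analysed here. Alternatives tried were mouse as a block, other size factors, no filter on low counts, DESeq2 1.42.0, other minimum cells per mouse, thinning, depth, other cell limits and leaving out mice.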

Additional observations from a re-analysis of the deposited data

Results flagged for a closer look

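Of 36 groups of mice and genes examined for a sample far from the rest, 2 were picked out, where chance gives about 1 in 20. In hCD2+ cDC1s the predicted gene Gm10076 was at 135 CPM in mouse 5, against 92.63 to 98.9 in the other 3 mice with at least 10 cells, while mice with 5 to 9 cells ran from 83.1 to 134. Irf8 in hCD2+ cDC1s was at 1895 CPM in mouse 4, against 1482 to 1542 in the other 3 mice with at least 10 cells, while mice with 5 to 9 cells ran from 1588 to 2503, so that mouse 4 lay within the range of all of them.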

How the results depend on the processing

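Between hCD2+ and hCD2- cDC1s, 36 genes were called. Without a filter on low counts the count was 87 of 16519 (59 higher and 28 lower, 34 of them shared), with DESeq2 it was 56 (20 higher and 36 lower, 35 shared), and with cells thinned to 5000 UMIs 13 of 1844 (1 higher and 12 lower, 11 shared), where fewer genes were tested. Leaving out 1 hCD2+ mouse at a time gave 29 to 32 calls. With mouse as a replicate block, which the shared animals justify, 38 genes were called, 21 of them shared with the 36, and the calls changed for the genes named beside their results and for Cadm1 and tdTomato. Thinning gave 1817 calls against cDC2s and 2640 against CCR7-high DCs, with fewer genes tested. Every other alternative kept these 3 counts within 1.5 times, and the difference in cDC1 share stayed between -4.15 and -4.54 percentage points. The share of dividing cells against cDC2s passed at 6.35 points with at least 5 cells per mouse; the cause was not tested. Uncalled values near 0 changed sign: Irf8 (0.12 with the block, 0.14 with at least 5 cells per mouse, 0.0299 thinned, -0.0966 to 0.00941 with 1 mouse left out), Cd8a (-0.035 with the block, -0.0751 to 0.255 with 1 mouse left out), Wdfy4 (-0.066 with at least 5 cells, -0.072 with at least 10000 UMIs, -0.0341 to 0.243 with 1 mouse left out), Xcr1 (-0.13, a gene of the rule and a description) and Batf3 (-0.16) thinned, and, against cDC2s with at least 4 of the 7 markers, H2-K1 (-0.0025) and Hspa1a (-0.194). At least 20 cells per mouse was not run between fractions, since no hCD2+ mouse reached it. Depth limits the hCD2+ arm, with 1 to 14 cDC1s per mouse.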

Other observations

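Receptor, checkpoint and tolerance genes of hCD2- cDC1s are given here beside 57.3% of all genes called against cDC2s and 77.6% against CCR7-high DCs. Against cDC2s, 4 of 19 growth factor and cytokine receptor genes were higher and 9 lower (median -0.16), among the lower ones Csf1r, the receptor of macrophage colony-stimulating factor (2.24 against 37.2 CPM, log2 -3.76 ± 0.41), and Il2rg, the common cytokine receptor chain (-2.63 ± 0.20). Of 16 costimulation and checkpoint genes, 7 were higher, among them Cd24a (342 against 29.5, 3.64 ± 0.21) and Btla, an inhibitory receptor (337 against 62.5, 2.48 ± 0.13), and 7 lower. Of 10 Treg induction and tolerance genes, 2 were higher and 5 lower, Aldh1a2 among them (-2.17 ± 0.33).

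Against CCR7-high DCs, 7 of 20 receptor genes were higher and 11 lower, with Il7r at 2.52 in cDC1s and 213 CPM in CCR7-high DCs (-6.87 ± 0.16). Of 16 chemokine receptor and homing genes 10 were higher and 3 lower (median 3.38 against 0.01 for all genes): Cxcr3, the receptor for CXCL9 and CXCL10 (28.1 against 0.116, 7.06 ± 0.29), Itgae (82.6 against 2.92, 4.57 ± 0.37) and Itgal, an integrin chain (101 against 4.39, 4.24 ± 0.17), were among the higher ones. Of 27 cross-presentation genes 9 were higher and 17 lower (median -0.51), where 39.4% of all genes were higher and 38.2% lower, so this list leaned to the lower side in cDC1s. Havcr2, which encodes TIM-3 (377 against 13.9, 4.42 ± 0.23), was among the 9 higher ones. Of 10 tolerance genes 3 were higher, with Tgfbi at 40.1 against 1.12 (4.56 ± 0.31), and 6 lower.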
